A study of Neurospora crassa with 6 samples.

Results

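Transcripts of 5 genes for stress transcription factors of Neurospora crassa were examined in wt and in the os2 mutant: hsf-1 (NCU08512), hsf-2 (NCU08480), asl-1 (NCU01345, also called atf-1), ap-1 (NCU03905) and crz-1 (NCU07952). They were chosen by locus and by no rule on their measured values, but with earlier results of these data known. They are 5 of the 9730 genes in the deposited table. The data are 6 RNAseq libraries, 1 for each strain in each condition. wt was strain OR74A. The os2 mutant was strain UCLA 80A, which carries a point mutation in os-2 in another strain background, so an effect of the mutation and an effect of the background cannot be told apart. All cultures were conidia germinated for 5 hr at 30°C in Vogel's medium with 0.05% glucose. Controls were held at 30°C for another 1 hr, HS was 2 hr at 45°C, and DS, the dual stress, was 2 hr at 45°C with the glucose analog 2-deoxyglucose (2-DG), which is taken up and phosphorylated but blocks glycolysis. Controls and stressed cultures thus differ by 1 hr of culture as well as by treatment.

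These 5 genes encode the nuclear ends of different stress pathways. Heat shock factors, encoded by hsf-1 and hsf-2, bind repeated elements in the promoters of chaperone genes and drive their transcription when proteins unfold. ASL-1 is a basic leucine zipper protein of the ATF/CREB family that acts below the OS-2 MAP kinase, the kinase mutated in os2. AP-1 belongs to the basic leucine zipper family of yeast Yap1, which is activated by oxidation and drives antioxidant genes. CRZ-1 is a zinc finger protein of the family of yeast Crz1, which enters the nucleus when the calcium-dependent phosphatase calcineurin removes its phosphates. All of these proteins are regulated in large part after translation, so a transcript level is a measure of the supply of message and not of the activity of the factor.

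The values are FPKM, in which fragments are normalised to transcript length and to the size of the library. Levels can thus be compared between genes of a library. How library size was set is not given in the sources used here. There was 1 library per condition, so no difference between conditions could be set against replicates or tested. A gene was counted as changed where 2 libraries differed at least 2-fold, and this was read against the share of all genes past the same limit. In these bulk cultures fewer cells that carry a transcript and less transcript per cell cannot be told apart. The low FPKM values differ in fixed steps, from which the number of fragments behind each value could be estimated. The values of the 5 genes rested on about 392 to 4268 fragments each, and the 95% interval from counting alone was between 0.08 and 0.19 wide on either side of a log2 ratio. Of the 45 log2 ratios, 38 lay farther from 0 than this interval. These intervals cover counting error only, not variation between cultures. The columns summed to between 426267 and 899576 FPKM. Scaling them to the same total shifted every log2 ratio of a comparison by the same amount, at most by 0.89 (os2/wt DS). Scaling by the median ratio shifted log2 ratios by at most 0.02 (os2/wt DS). The transcript of os-2 was present in all libraries, where wt had 113 FPKM in the control, 65.1 after HS and 67.1 after DS, and os2 had 34.3, 37.0 and 37.5 FPKM.

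In the RefSeq annotation of assembly NC12, hsf-1 lies on chromosome II from 3404179 to 3409122 and hsf-2 on the same chromosome from 3514186 to 3517793, 105 kb away. asl-1 lies on chromosome V (3718339 to 3721921), ap-1 on chromosome VI (2105662 to 2109337) and crz-1 on chromosome IV (1238524 to 1241926). The hsf-1 gene overlaps the protein gene NCU10388 over 456 bp and an annotated noncoding RNA gene, NCU14141, over 928 bp. asl-1 overlaps NCU01346 over 318 bp, and crz-1 overlaps NCU07951 over 23 bp. These overlaps cover 9.2% (NCU10388) and 18.8% (NCU14141) of hsf-1, 8.9% of asl-1 and 0.68% of crz-1. No strand setting is given in the sources used here, and without one the reads inside an overlap cannot be told apart. For NCU10388 the wt control had 23.5 FPKM, wt HS had 17.6 and wt DS had 25.3, and the os2 libraries had 23.3, 17.2 and 34.8 FPKM in the same order. NCU01346 was listed at 4.64 FPKM in wt HS, the library in which asl-1 was highest, and at 0 in the other 5 libraries. hsf-2 and ap-1 overlap no annotated gene.

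At 30°C all 5 transcripts were at similar levels in the strains. None of them differed 2-fold between os2 and wt, a limit that 6% of 7988 genes passed in either direction. The log2 ratio os2/wt at 30°C lay between -0.12 (hsf-2) and 0.31 (ap-1). For hsf-1, hsf-2, asl-1 and crz-1 it was within counting error of 0. The order of the levels was also the same in the strains, with ap-1 highest, then crz-1, hsf-2 and asl-1, and with hsf-1 lowest.

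**Figure D1:**
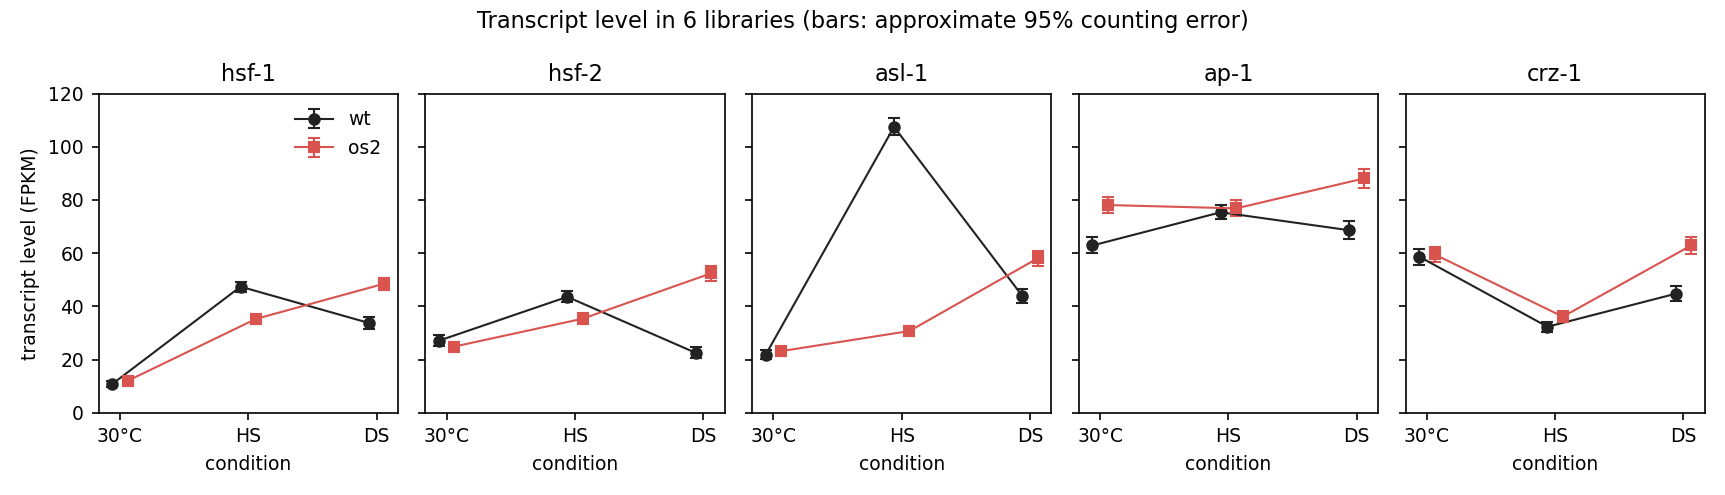
Transcript level in FPKM (vertical axis, from 0) of hsf-1, hsf-2, asl-1, ap-1 and crz-1 at 30°C, HS and DS, with 1 library per point, wt as circles and os2 as squares; bars are the approximate 95% counting error. The wt and os2 lines of hsf-1, hsf-2 and asl-1 cross between HS and DS (for hsf-2 not at equal column totals), asl-1 has its peak of 107 FPKM in wt HS, and ap-1 stays between 62.9 and 88.1 FPKM.

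hsf-1 was the transcript that rose at least 2-fold in every stress of both strains. The wt control stood at 10.8 FPKM, wt HS at 47.4 and wt DS at 33.8. The os2 control stood at 12.02 FPKM, os2 HS at 35.3 and os2 DS at 48.5. The stressed libraries were thus all above the controls, and the strains differed in which stress gave the higher level, HS in wt and DS in os2. The rise in wt HS/30 was 4.37-fold (log2 ratio 2.13, counting interval 1.98 to 2.28), and in wt DS/30 it was 3.12-fold. In os2 the rises were 2.94-fold in HS/30 and 4.04-fold in DS/30. Of 7972 genes compared, 10.5% rose at least 2-fold in all 4 of these comparisons, and hsf-1 was the only one of the 5 genes to do so. Its log2 ratio was higher than that of 85.9% of genes in wt HS/30, 88.5% in wt DS/30, 88.7% in os2 HS/30 and 90.3% in os2 DS/30. Under each of the scalings and pseudocounts tried, all 4 rises stayed past 2-fold.

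hsf-2, the second heat shock factor gene, had smaller differences. The wt control had 27.1 FPKM, wt HS 43.6 and wt DS 22.6, so that the DS library was the lowest of the 3. The os2 control had 24.9 FPKM, os2 HS 35.4 and os2 DS 52.4, the highest of its 6 values. It passed 2-fold over the control only in os2 DS/30, at 2.10-fold (log2 ratio 1.07, counting interval 0.95 to 1.20). The log2 ratio was 0.68 in wt HS/30 and 0.51 in os2 HS/30, and equal column totals brought these to 1.09 and 1.28, past the limit. Between the strains in DS, hsf-2 was 2.32-fold higher in os2 (log2 ratio 1.22, counting interval 1.07 to 1.36), a ratio above that of 92.9% of genes. In HS its log2 ratio os2/wt was -0.30, and 0.05 at equal column totals. It was the only one of the 5 past 2-fold in os2/wt DS, where 11.4% of all genes were at least 2-fold higher in os2. At equal column totals all 5 were past it, and so were 46.0% of all genes.

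The ratio of the heat shock factor transcripts to each other also moved with stress. In controls the hsf-2 level was 2.50 times that of hsf-1 in wt and 2.07 times in os2. In HS the ratio was 0.92 in wt and 1.00 in os2. In DS it was 0.67 in wt and 1.08 in os2. This ratio is taken within a library and does not depend on the scaling between libraries.

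On the deposited scale asl-1 had the largest range of the 5 genes (4.92-fold) and the largest log2 ratio between the strains (-1.81, os2/wt HS). At equal column totals its range was 6.53-fold and that of hsf-1 6.65-fold, and the largest ratio between the strains was that of hsf-2 in os2/wt DS (2.11, where asl-1 in os2/wt HS had -1.46). The wt control held 21.9 FPKM, wt HS 107 and wt DS 43.9. The os2 control held 23.2 FPKM, os2 HS 30.7 and os2 DS 58.1. The wt HS library thus stood above the other 5, whose highest value was 58.1 FPKM in os2 DS. In wt HS/30 asl-1 rose 4.92-fold (log2 ratio 2.30, counting interval 2.17 to 2.42), and in os2 HS/30 it was 1.33-fold over the control, short of the limit but past it at equal column totals (log2 ratio 1.18). Between the strains in HS it was 3.50-fold lower in os2 (log2 ratio -1.81, counting interval -1.91 to -1.70), and 92.4% of genes had a higher ratio. Of all genes, 17.9% were at least 2-fold lower in os2 in this comparison, and asl-1 was the only one of the 5.

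In DS the strains were closer for asl-1. In os2 DS/30 it rose 2.51-fold. In wt DS/30 it was 2.01-fold (log2 ratio 1.01), just past the limit, and below it at equal column totals (0.69), with scaling by the median ratio (0.99) or with a pseudocount of 1 (0.98). In os2/wt DS the log2 ratio was 0.40. From HS to DS asl-1 fell 2.45-fold in wt, the only one of the 5 genes to fall past 2-fold in wt DS/HS, where 20.3% of all genes did. At equal column totals hsf-1 (-1.22) and hsf-2 (-1.68) passed it too, as did 43.7% of all genes, and hsf-2 also at equal upper quartiles (-1.02). In os2 DS/HS its log2 ratio was 0.92, a 1.89-fold higher level in DS.

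ap-1 was the steadiest of the 5 transcripts. The wt libraries had 62.9 FPKM (control), 75.4 (HS) and 68.6 (DS), and the os2 libraries 78.1, 76.8 and 88.1 FPKM. The highest library was 1.40-fold over the lowest, while the median gene had a range of 3.31-fold, and 1.30% of 7972 genes had a smaller range than ap-1. At equal column totals its range was 2.38-fold and 14.4% of genes had a smaller one. Its log2 ratios to the control lay between -0.02 (os2 HS/30) and 0.26 (wt HS/30), none past 2-fold. The signs of those in os2 HS/30 and wt DS/30 turned at equal column totals. ap-1 was also the highest of the 5 transcripts in every library but wt HS, where asl-1 stood at 1.43 times its level.

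crz-1 was the member whose level was lower in HS than at 30°C in each strain. The wt libraries had 58.7 FPKM (control), 32.3 (HS) and 44.8 (DS), and the os2 libraries 59.6, 36.1 and 62.9 FPKM. The HS libraries were the lowest of the 6. Neither difference passed 2-fold, since crz-1 was 1.81-fold lower in wt HS/30 (log2 ratio -0.86, counting interval -0.97 to -0.75) and 1.65-fold lower in os2 HS/30 (log2 ratio -0.72). In os2 this turned to 0.05 at equal column totals. In DS/30 the log2 ratio was -0.39 in wt and 0.08 in os2, the latter within counting error of 0.

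Counted over the members, 2 of 5 rose at least 2-fold in wt HS/30 (hsf-1 and asl-1), where 28.3% of all genes did. In wt DS/30 the same 2 did, beside 19.4% of all genes. In os2 HS/30 it was hsf-1 alone (with hsf-2 and asl-1 at equal column totals, where 41.5% of all genes passed), beside 19.3% of all genes, and in os2 DS/30 it was hsf-1, hsf-2 and asl-1, beside 23.3%. No member fell 2-fold against the control, beside 27.7% of all genes in wt HS/30, 15.1% in wt DS/30, 15.1% in os2 HS/30 and 19.4% in os2 DS/30. In os2 DS/HS none of the 5 passed the limit, beside 17.6% of all genes in either direction. With 5 genes, such counts describe these genes only.

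**Figure D2:**
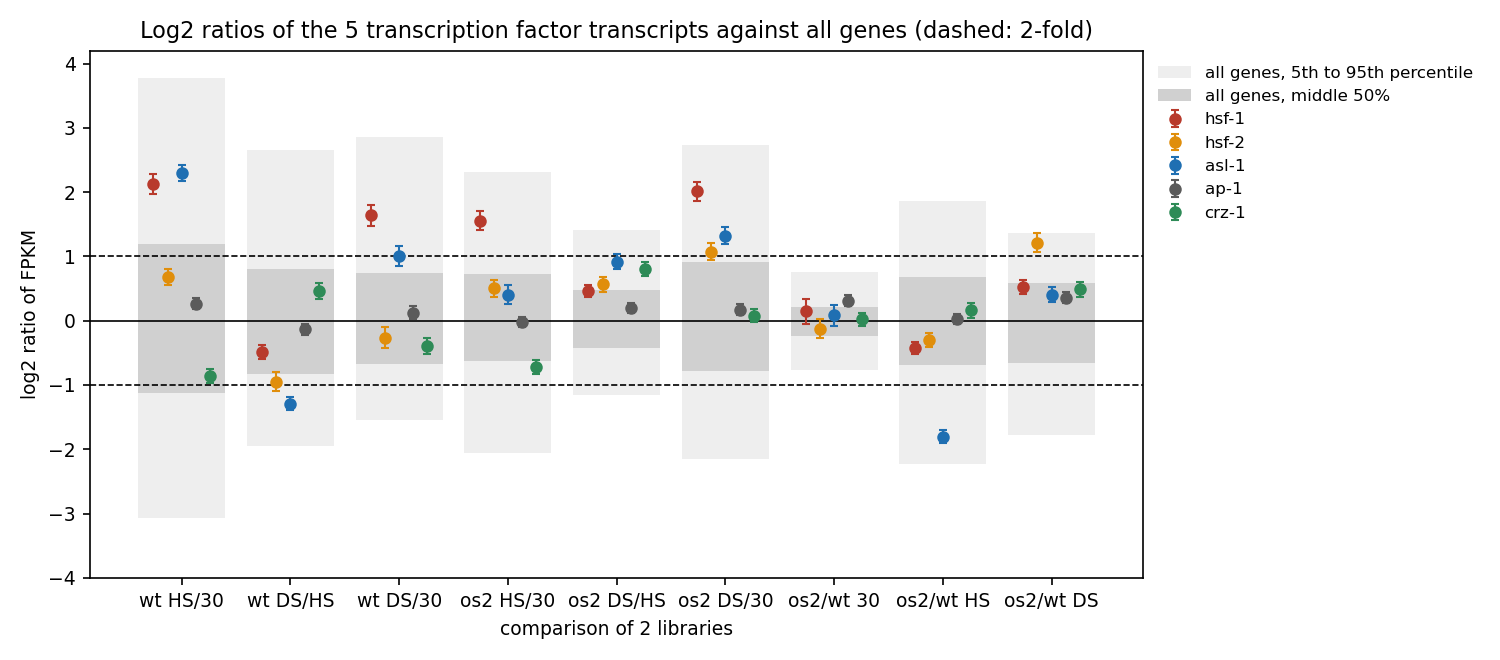
Log2 ratio of FPKM (vertical axis) of the 5 transcripts in 9 comparisons of 2 libraries (horizontal axis), with bars for the approximate 95% counting error, dashed lines at 2-fold and grey boxes for the spread of all genes compared. hsf-1 lies above the upper dashed line in all 4 comparisons with 30°C, ap-1 lies within 0.36 of 0 in all 9 on the deposited scale, and asl-1 lies at -1.81 in os2/wt HS.

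The response to adding 2-DG to heat differed in sign between the strains for 4 of the 5 genes. For hsf-1 the wt log2 ratio DS/HS was -0.49 and that of os2 was 0.46, for hsf-2 they were -0.95 and 0.57, and for asl-1 -1.29 and 0.92. For ap-1 it was -0.14 and 0.20. For crz-1 it was above 0 in both, 0.47 in wt and 0.80 in os2, and its wt value turned negative at equal column totals. Over all genes, 27.1% of 8063 were below 0 in wt and above 0 in os2, and 23.2% had the opposite pattern. The difference between the strains, os2 minus wt, was 2.21 for asl-1 (counting interval 2.05 to 2.36), higher than that of 94.1% of genes. It was 1.52 for hsf-2, 0.95 for hsf-1 and 0.33 for both ap-1 and crz-1. A difference of at least 1 was found for asl-1 and hsf-2 and for 25.4% of all genes, where the median of all genes was 0.13. With 1 library for each value this difference was not tested. Every one of the 5 is computed from the same 4 libraries, so a feature of 1 library moves all of them.

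**Figure D3:**
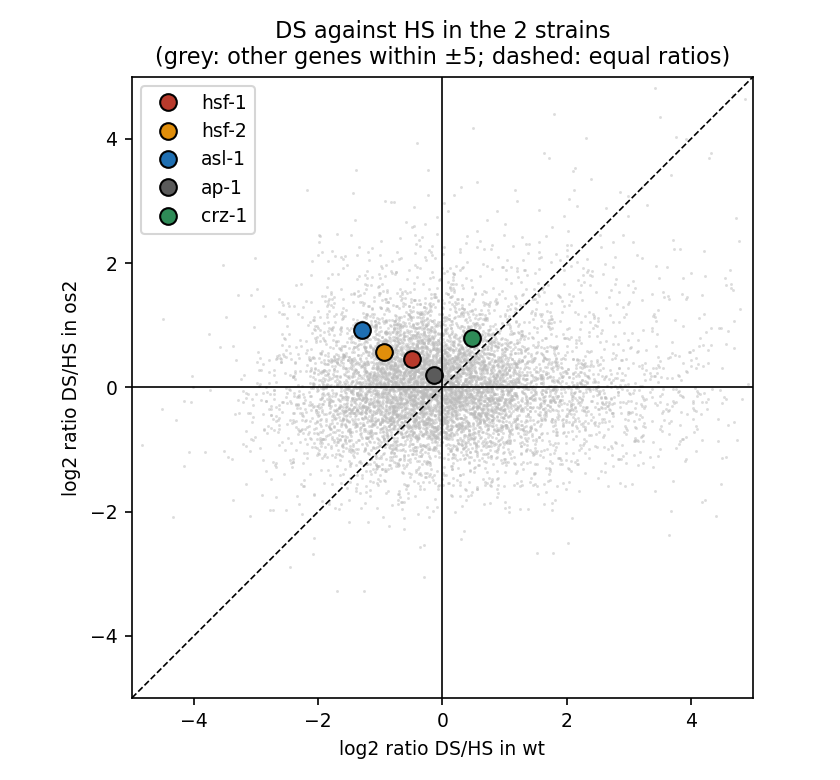
Log2 ratio DS/HS in wt (horizontal axis) and in os2 (vertical axis), with 1 grey point for each other gene within the axes, the 5 transcription factor genes in color and a dashed line where the strains are equal. asl-1, hsf-2, hsf-1 and ap-1 lie in the upper left area, lower in DS than in HS in wt and higher in os2, and crz-1 lies at 0.47 and 0.80.

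The order of the 5 levels within a library changed with stress. In wt HS asl-1 came first, followed by ap-1, hsf-1, hsf-2 and crz-1, so that the gene with the second highest level at 30°C was the lowest. In wt DS the order was ap-1, crz-1, asl-1, hsf-1 and hsf-2. In os2 HS it was ap-1, crz-1, hsf-2, hsf-1 and asl-1, and in os2 DS it was ap-1, crz-1, asl-1, hsf-2 and hsf-1. Several neighbors in these orders had overlapping counting intervals. These were ap-1 and crz-1 in the wt control, hsf-2 and asl-1 in the os2 control, hsf-1 and hsf-2 in wt HS, os2 HS and os2 DS, crz-1 and hsf-2 in os2 HS, and crz-1 and asl-1 in DS of both strains.

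The transcripts of chaperones, the textbook products of heat shock factor activity, were set beside hsf-1 and hsf-2. Of 14 chaperone and cochaperone genes, 12 passed a 2-fold rise in wt HS/30 (28.3% of all genes), and all 14 did in wt DS/30, os2 HS/30 and os2 DS/30 (19.4%, 19.3% and 23.3%), with median log2 ratios of 1.71, 3.62, 1.81 and 2.44. The median of all genes lay between -0.09 and 0.02 in the 9 comparisons. Several of these genes were picked by the study from these same libraries, so the counts are not independent evidence of a direction. In wt DS/HS 11 of the 14 rose and none fell, beside 21.1% of all genes that rose, with a median of 1.75 (7 rose, median 1.02, at equal column totals), while the log2 ratios of hsf-1 and hsf-2 were -0.49 and -0.95. The disaggregase Hsp98 (NCU00104) had 443 FPKM in wt HS and 18575 in wt DS, and Fes1 (NCU04172), which exchanges the nucleotide of Hsp70, had 99.6 and 2467 FPKM. At the other end, the mitochondrial cochaperonin Hsp10 (NCU04334) had 1204 and 1222 FPKM, and Hsp88 (NCU05269), an Hsp110 relative, had 810 and 977 FPKM. In os2 DS/HS 5 of the 14 rose, beside 10.2% of all genes, with a median of 0.59, where hsf-1 had 0.46 and hsf-2 had 0.57. In os2/wt DS 8 of the 14 were at least 2-fold lower in os2, beside 16.5% of all genes, with a median of -1.29, while hsf-1 and hsf-2 were at 0.52 and 1.22. At equal column totals 5 of the 14 were lower and 1 was higher, with a median of -0.40.

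**Figure D4:**
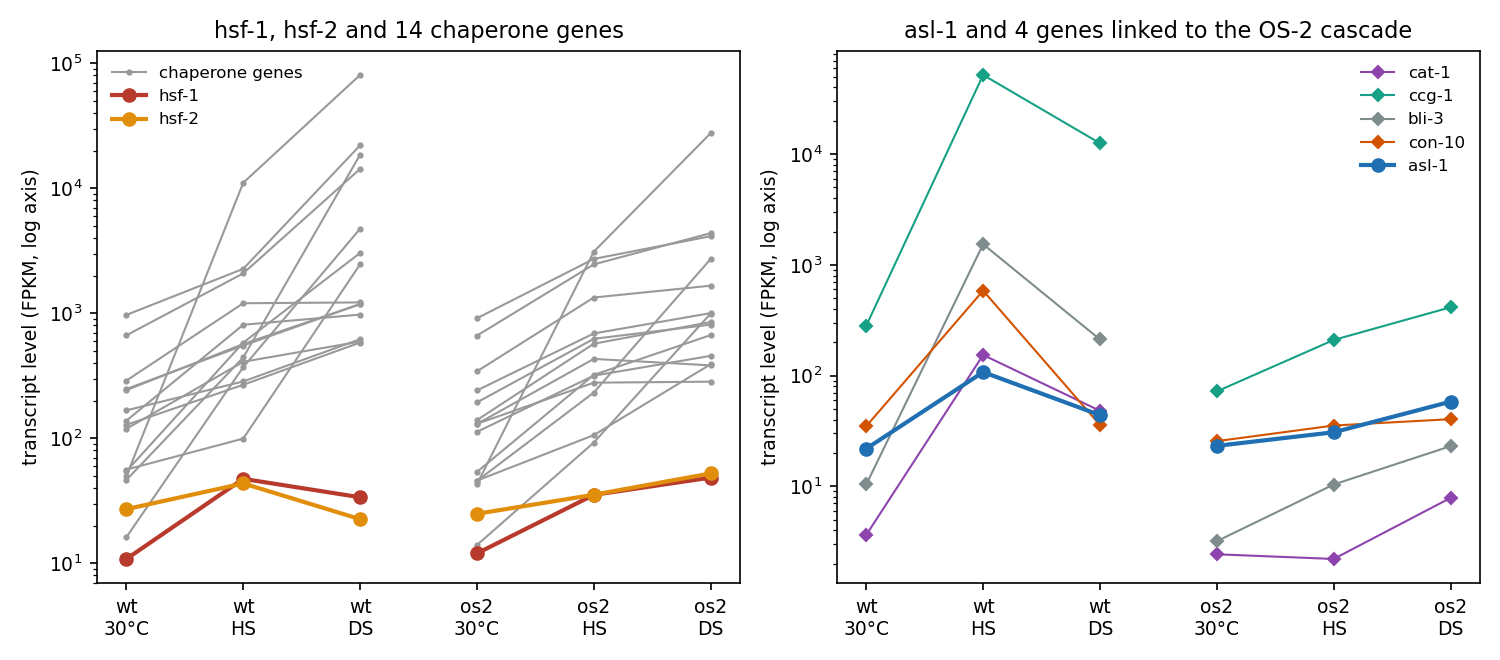
Transcript level in FPKM on a log axis in the 6 libraries (horizontal axis), on the left for hsf-1, hsf-2 and 14 chaperone genes in grey and on the right for asl-1, cat-1, ccg-1, bli-3 and con-10, with lines joining the libraries of 1 strain. On the left 11 of the 14 chaperone lines rise at least 2-fold from HS to DS in wt while the hsf-1 and hsf-2 lines slope down, and on the right all 5 lines peak in wt HS.

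For asl-1 the comparison was made with 4 genes whose expression has been linked in Neurospora to the OS-2 cascade, in part through ASL-1. They are cat-1 (NCU08791), a catalase of conidia, the glucose-repressible clock-controlled gene ccg-1 (NCU03753), the blue light-inducible gene bli-3 (NCU07267) and the conidiation gene con-10 (NCU07325). Of these, cat-1 was listed by the study from these same libraries, and ccg-1 and bli-3 from its protein comparison of the strains in DS. The 4 were taken with earlier results of these data known, so their counts are not independent evidence. All 4 rose in wt HS/30 and all 4 fell in wt DS/HS, with median log2 ratios of 6.30 and -2.45, where asl-1 had 2.30 and -1.29. Of all genes, 28.3% rose past 2-fold in wt HS/30 and 20.3% fell past it in wt DS/HS. In wt ccg-1 had 282 FPKM (control), 51910 (HS) and 12535 (DS), and bli-3 had 10.4, 1535 and 212 FPKM. cat-1 had 3.64, 153 and 48.0 FPKM. con-10 had 34.9, 585 and 35.7 FPKM, so that its wt DS level was back at that of the control. In os2 HS the same genes were far lower than in wt HS, all 4 past 2-fold with a median log2 ratio of -6.67, where asl-1 had -1.81. Of all genes, 17.9% were at least 2-fold lower in this comparison. In os2 ccg-1 had 72.0 FPKM (control), 210 (HS) and 414 (DS), bli-3 had 3.19, 10.4 and 23.03, and con-10 had 25.6, 35.4 and 40.4. The os2 levels of cat-1 were 2.43, 2.20 and 7.85 FPKM, and it alone of the 4 was below its control in os2 HS (log2 ratio -0.14). From HS to DS in os2 all 4 had log2 ratios above 0, from 0.19 (con-10) to 1.83 (cat-1), where asl-1 had 0.92. Of these 4, 2 rose past 2-fold (1 at equal column totals), beside 10.2% of all genes (7.14% at equal column totals). In os2 DS asl-1 was above its wt DS level (log2 ratio 0.40), while cat-1, ccg-1 and bli-3 were below theirs (-2.61, -4.92 and -3.20) and con-10 was at 0.18. At 30°C ccg-1 and bli-3 were already lower in os2 (log2 ratios -1.97 and -1.70), and asl-1 was at 0.09.

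For the osmosensing pathway 8 genes were set beside asl-1, and their counts depended on the scaling. In wt HS/30 1 rose, the histidine kinase gene Sln1 (NCU04615, log2 ratio 2.07), and 2 fell, the phosphotransfer protein gene hpt-1 (-1.23) and the histidine kinase gene os-1 (-1.04), beside 28.3% and 27.7% of all genes. With column totals made equal, Sln1 and os-4 rose and neither hpt-1 (-0.82) nor os-1 (-0.63) passed the limit, and at equal upper quartiles hpt-1 alone fell. In os2 HS/30 2 rose, Sln1 (1.55) and the MAP kinase kinase kinase gene os-4 (1.26), and hpt-1 fell (-1.25, and -0.47 at equal column totals). Of all genes, 19.3% rose and 15.1% fell in this comparison. In wt DS/HS and os2 DS/HS none of the 8 passed 2-fold on the deposited scale. Of all genes, 21.1% rose and 20.3% fell in wt DS/HS, and 17.6% passed in either direction in os2 DS/HS. At equal column totals os-5, the MAP kinase kinase gene, fell past 2-fold in wt DS/HS (-1.16), beside 43.7% of all genes. In os2/wt HS none of the 8 passed 2-fold on the deposited scale, where 16.3% of all genes were at least 2-fold higher in os2 and 17.9% lower. os-1 (1.01) and os-4 (1.07) were higher in os2 at equal column totals. In os2/wt DS os-4 alone was past the limit (1.16), beside 11.4% of all genes that were higher in os2. It was joined at equal column totals by the response regulator gene rrg-1 (1.27) and os-5 (1.17), beside 46.0% of all genes.

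Antioxidant genes were set beside ap-1. Of 16 such genes, many of which the study picked from these libraries, 9 rose and 2 fell in wt HS/30, beside 28.3% and 27.7% of all genes, and 9 rose and none fell in wt DS/30, beside 19.4% and 15.1%. In os2 6 rose and 3 fell in HS/30, beside 19.3% and 15.1% of all genes, and 7 rose and 1 fell in DS/30, beside 23.3% and 19.4%. The falls at equal column totals were 1 in wt HS/30 and none in os2 HS/30 or os2 DS/30. The rises changed too. In wt DS/30 equal totals lowered every log2 ratio by 0.32. The rises of sod-1 (1.18 as deposited) and the thioredoxin gene NCU02595 (1.22) then fell short of the limit, beside 14.6% of all genes that rose. In os2 HS/30 every log2 ratio was 0.77 higher, and thioredoxin 2 (0.28 as deposited) passed, beside 41.5% of all genes. The gene for the reductase Mig4 (NCU09040) had 5.07 FPKM in the wt control and 365 in wt HS, a log2 ratio of 6.17, and Catalase 2 had 6.65. The lowest ratios of wt HS/30 were those of the peroxiredoxin gene Prx1 (NCU06031, -1.88) and of glutathione reductase (NCU03339, -1.32). The ap-1 transcript had a log2 ratio of 0.26 in the same comparison.

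For crz-1 the comparison was with 14 genes for calcium signaling and transport. In wt HS/30 2 rose, the calcium-transporting ATPase NCU07966 (log2 ratio 3.06) and the calmodulin-dependent kinase gene camk-4 (2.22), and 4 fell, beside 28.3% and 27.7% of all genes. Only 1 fell at equal column totals, and 2 at equal upper quartiles. The calcineurin regulatory subunit gene cnb-1 (NCU03833) was among the latter, with wt libraries at 274 FPKM (control), 81.3 (HS) and 133 (DS), a log2 ratio of -1.75 in HS/30. The os2 libraries had 265, 213 and 160 FPKM, where the log2 ratio in HS/30 was -0.32. The lowest ratio after that of cnb-1 was that of camk-1, with -1.26 in wt HS/30 and -0.79 in os2 HS/30. Calmodulin (cmd, NCU04120) had -1.02 and -0.69, and the ATPase had 0.92 in os2 HS/30. crz-1 was at -0.86 and -0.72 in these comparisons, where the medians of the 14 genes were -0.10 and -0.33. At equal column totals the medians were 0.31 and 0.44, and crz-1 was at -0.45 and 0.05.

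Among 28 other transcription factor genes taken by symbol, 5 rose and 11 fell in wt HS/30, with a median log2 ratio of -0.37, beside 28.3% and 27.7% of all genes. The median was 0.03 at equal column totals, and 2 rose among those with a mean of 10 FPKM or more. The highest ratios were those of clr-2 (4.87), a regulator of cellulase genes with 0.47 FPKM in the wt control, and acon-3 (2.68), a conidiation gene. The lowest were those of adv-1 (-4.18) and pp-1 (-2.57), which are needed for development and cell fusion. In os2 HS/30 5 rose and 9 fell, beside 19.3% and 15.1% of all genes. At equal column totals 10 rose and 2 fell, beside 41.5% and 6.36% of all genes. hsf-1 and asl-1, at 2.13 and 2.30 in wt HS/30, were above 26 and 26 of the 28.

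Over the 6 libraries, on the deposited scale, the log2 levels of the members were most alike for hsf-1 and asl-1 (Pearson's r = 0.84) and least alike for hsf-1 and crz-1 (r = -0.54). Among 880 other genes that have a RefSeq symbol and average 10 FPKM or more, the one most like asl-1 was mcb (r = 0.998), which encodes the regulatory subunit of the cAMP-dependent protein kinase. Its wt libraries had 42.3 FPKM (control), 92.2 (HS) and 59.3 (DS), and its os2 libraries 43.5, 48.6 and 70.4 FPKM, which ranks the 6 libraries as asl-1 does. Next were mus-25 (0.990), a DNA repair gene, and stk-33 (0.975), a protein kinase gene. The most like hsf-1 were csb (0.997), mus-8 (0.993), which encodes a ubiquitin-conjugating enzyme of DNA repair, and mig-4 (0.990). For hsf-2 they were the kinase genes stk-13 (0.988) and stk-23 (0.983) and gpit-1 (0.983). For crz-1 they were set-1 (0.975), msn-1 (0.952), a zinc finger factor of the family of yeast Msn2, and mus-27 (0.947). For ap-1, whose range was small, they were stk-20 (0.927), crf6-1 (0.900) and hat-2 (0.885). Each coefficient describes the same 6 libraries and is among the 3 highest of the genes searched.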

How the data were processed

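Illumina TruSeq libraries of polyadenylated RNA were sequenced as paired ends. According to the methods, the authors split reads with CASAVA 1.8.2, used FastQC for quality and TopHat for alignment (genome 74a_12, transcripts of the Broad Institute), and deposited FPKM values from Cufflinks, 1 column per library. Other tool versions are not given in the sources used here. The authors' Cuffdiff comparisons were not used.

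Log2 ratios of FPKM, with no pseudocount, were taken for genes with 2 values above 0 and a mean of 1 FPKM or more, with a limit of 2-fold and no test. 1 row without an identifier was left out. The value of 1 fragment in each library came from the commonest ratio among genes of at least 1000 bp whose FPKM times length was below 200 in both libraries (13 to 32 genes per pair, within 0.003 on the log2 scale). Its constant came from 393 genes whose values were whole multiples, with quartiles at 0.90 and 1.27 of the median. Lengths are RefSeq gene lengths, so fragment numbers are approximate. This estimate was added after the values were seen.

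Symbols came from RefSeq (assembly NC12), which matched 9729 of 9730 loci. The names ap-1 and crz-1 are not RefSeq symbols. Lists were taken from the study's tables or by symbol, with 14 of 21 calcium and 28 of 33 factor entries matched to distinct loci. The members and lists were chosen with earlier results of these data known. Named genes are the 5 members, os-2, genes at either end of a list in the comparison described and others a statement needs, and the 3 most alike in log2 level. The alternatives were 3 scalings (equal column totals, median ratio, equal upper quartiles), a pseudocount of 0.1 or of 1, no filter and a filter at a mean of 10 FPKM. Python 3.11.15, numpy 2.4.6, pandas 2.3.3 and matplotlib 3.10.9 were used, and the calculations were tested on simulated data.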

Additional observations from a re-analysis of the deposited data

Results flagged for a closer look

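For 4 genes the log2 ratio DS/HS was below 0 in wt and above 0 in os2. The difference, os2 minus wt, was 2.21 for asl-1, 1.52 for hsf-2, 0.95 for hsf-1 and 0.33 for ap-1, and 27.1% of all genes had this pattern of signs. Each rests on 1 library per value, and the difference was not tested. The pattern held for these 4 genes under all 3 scalings of the columns.

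In DS/30 the signs differed between the strains for hsf-2, at -0.27 in wt and 1.07 in os2 (difference 1.34), and for crz-1, at -0.39 in wt and 0.08 in os2 (difference 0.47). In HS/30 they differed for ap-1, at 0.26 in wt and -0.02 in os2 (difference -0.28), where the os2 value was above 0 at equal column totals and at equal upper quartiles. These differences were not tested either.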

How the results depend on the processing

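The number of members past 2-fold was 1 in wt DS/HS, and became 3 at equal column totals and 2 at equal upper quartiles. It was 2 in wt DS/30, and became 1 at equal totals, with the median ratio and with a pseudocount of 1. At equal totals it became 3 in os2 HS/30 (from 1) and 5 in os2/wt DS (from 1). In the other 5 comparisons it stayed within 1.5 times its value under all alternatives. Of the 45 member ratios, 10 crossed the 2-fold limit and 5 changed sign under some alternative, and none of those that changed sign was past the limit. The cause was not tested. Of 54 list medians, 6 crossed the limit and 20 changed sign under some alternative, 19 of them at equal totals. Each of these 20 was under 2-fold on the deposited scale, at most 0.87 from 0. No paired analysis was possible because each strain and condition has 1 library. Counting error is small at these depths, and the variation between cultures is unknown.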
